A study of Mus musculus with 7 samples.

Results

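Enzyme genes of methionine, glycine and serine catabolism in the mouse liver were followed in primary hepatocytes from mice without WDR6. The 10 genes were chosen by name and were *Mat1a*, *Gnmt*, *Ahcy*, *Bhmt*, *Cbs*, *Cth*, *Gldc*, *Shmt1*, *Sds* and *Mthfd1*, out of 14819 genes in the table of read counts. All 10 were in the table and all 10 passed the expression filter of edgeR, the program used for the tests. The study compared hepatocytes of WT mice (n = 4) with those of WDR6-WKO mice (n = 3), in which exon 2 of *Wdr6* had been removed in the whole body with CRISPR–Cas9. All cells came from male mice, were freed from the liver by a collagenase perfusion in 2 steps, and were kept overnight in William's E medium with serum and no further treatment. The methods of the study name C57BL/6J as the default strain, bought at an age of 7 weeks, and state no separate strain or age for the WDR6-WKO line or for the mice at isolation. The deletion was present in every tissue and throughout life, so the cells came from animals that lacked WDR6 before isolation.

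In the liver, methionine is turned into S-adenosylmethionine, the donor of methyl groups, and then through S-adenosylhomocysteine into homocysteine. Homocysteine either takes up a new methyl group to become methionine again or is joined to serine and broken down to cysteine, a route called transsulfuration. Glycine and serine are interconverted and broken down by enzymes that pass their carbon to folate, which links both routes, and hepatocytes of the portal side of the liver lobule are known for high amino acid catabolism.

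The 7 libraries held 17816913 to 23668940 counted reads. Levels are CPM, which set each count against the library's total, scaled with the TMM factors of edgeR, and per kilobase of exon where genes are compared with each other. *Wdr6* itself stood at 49.0, 40.6, 40.9 and 45.6 CPM in WT and at 2.58, 2.32 and 2.23 CPM in WDR6-WKO, in keeping with every label. Between libraries of 1 genotype Spearman's rho was 0.992 to 0.996, and the counts of no pair agreed within sampling noise. WDR6-WKO replicate 3 stood apart from the other 2 WDR6-WKO libraries, with a chi-square per gene of 14.3 and 15.9 against 3.80 to 8.22 in all other pairs of the same genotype. Results that rest on this library are given with and without it. The paper describes its replicates in general as biological rather than technical. For these libraries the sources used here do not state separately that each came from a different mouse. The p-values measure the spread between these samples.

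Of the 10 enzyme genes, 2 were higher in WDR6-WKO hepatocytes, 0 were lower and 8 did not pass the test. *Cth*, which encodes cystathionine gamma-lyase, the enzyme that releases cysteine at the end of transsulfuration, was 2.09-fold as high as in WT. *Gldc*, which encodes the decarboxylase of the glycine cleavage complex, was 1.39-fold as high. Genes were tested with the quasi-likelihood test of edgeR, p-values were adjusted by the Benjamini-Hochberg method over 14779 genes, and a gene passed at an adjusted p under 0.05. The count of lower genes was also 0 at an unadjusted p under 0.05, with DESeq2 and with limma-voom. Over all genes tested, 12.8% passed in either direction, 6.65% as higher and 6.18% as lower. The CPM ranges of the genotypes did not overlap for 2 of the 10 genes, against 23.5% of all genes tested. The count of 2 is near what these shares give for 10 genes, and nothing particular to the 10 is read from it. The median log2 fold change of the 10 genes was 0.15, beside 0.01 over all genes tested, and 7 of the 10 fold changes were above 0. The median over the 10 genes of the log2 CPM relative to the WT mean lay between -0.02 and 0.02 in the WT libraries, at 0.21 and 0.19 in WDR6-WKO replicates 1 and 2, and at -0.0033 in replicate 3. Without replicate 3, 4 of the 10 genes passed as higher, *Ahcy* and *Mthfd1* beside *Cth* and *Gldc*, while 14.5% of all genes tested passed as higher. In bulk RNA, fewer cells of a type and less RNA per cell cannot be told apart.

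**Figure D1:**
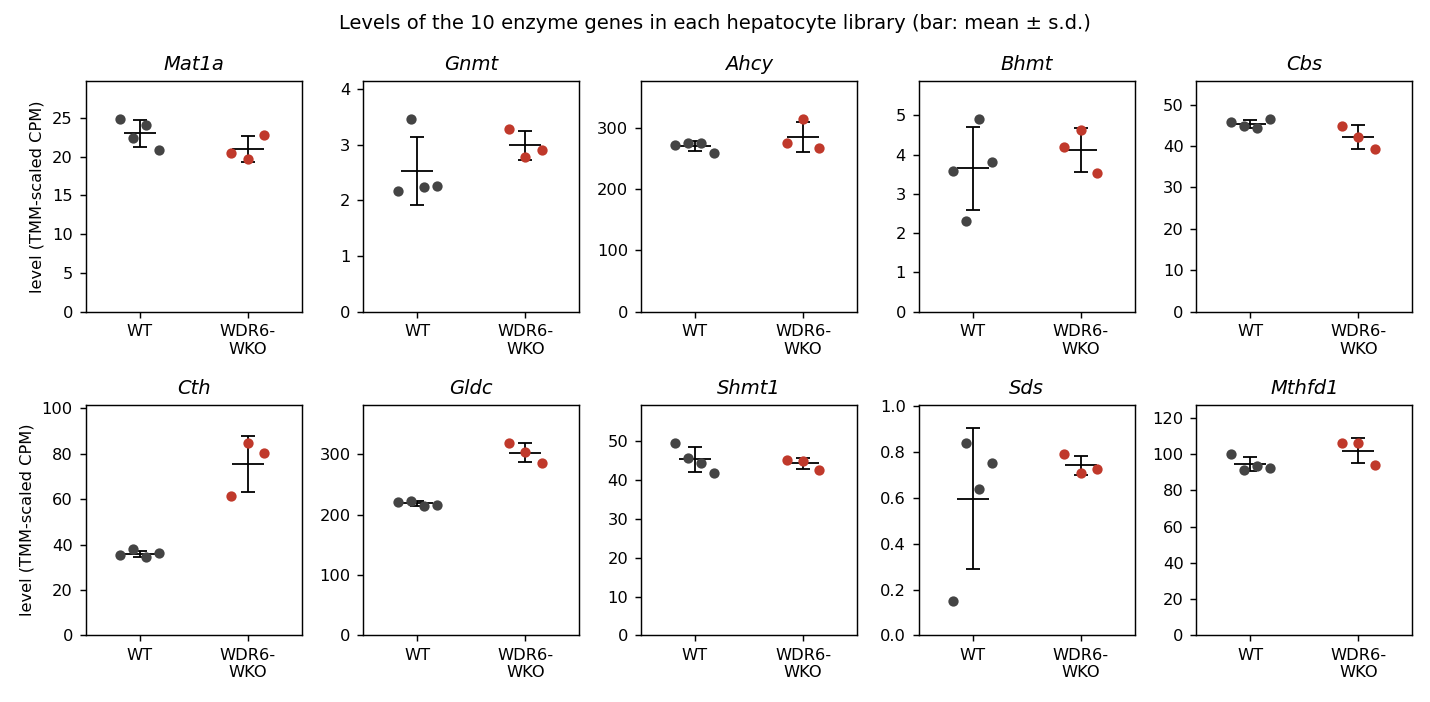
Levels of the 10 enzyme genes in TMM-scaled CPM on linear axes that start at 0, 1 panel per gene, with 1 point per hepatocyte library and a bar for the mean ± s.d. (WT, n = 4, and WDR6-WKO, n = 3). The WDR6-WKO points of *Cth* (61.5 to 84.6 CPM) and *Gldc* (286 to 319 CPM) lie above all WT points, and the genotypes overlap in the other 8 panels.

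The levels of the 10 genes in WT spanned more than 2 orders of magnitude per kilobase of exon. *Ahcy*, encoding S-adenosylhomocysteine hydrolase, stood highest at 106 ± 3.00 CPM per kilobase (s.d., n = 4), followed by *Gldc* at 58.1 ± 0.978 and *Mthfd1* at 29.1 ± 1.19. *Cth* at 19.8 ± 0.761, *Shmt1* at 15.8 ± 1.11, *Cbs* at 7.23 ± 0.146 and *Mat1a* at 6.65 ± 0.502 CPM per kilobase formed the middle of the order. *Gnmt* at 2.44 ± 0.598, *Bhmt* at 1.47 ± 0.427 and *Sds* at 0.462 ± 0.238 CPM per kilobase stood lowest. Neighbours in this order had separate WT ranges except *Cbs* and *Mat1a*, which overlapped. *Ahcy*, *Bhmt* and *Sds* share sequence or exon bases with other genes, as given below, so their places could depend on how reads were counted. On the opposite strand, *Smcr8* overlaps 184 of the 2858 exon bases of *Shmt1*, and *Gm47525* overlaps 37 of the 3241 of *Mthfd1*. In WDR6-WKO, *Cth* reached 41.6 ± 6.78 CPM per kilobase (s.d., n = 3) and stood above *Mthfd1* at 31.5 ± 2.15, while *Gldc* reached 80.4 ± 4.31.

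The 4 genes of the methionine cycle did not pass the test. *Mat1a* on chromosome 14 (41105035 to 41124412, plus strand, GRCm38) encodes the liver's methionine adenosyltransferase, which makes S-adenosylmethionine. It stood at 24.8, 22.5, 24.04 and 20.9 CPM in WT and at 20.5, 19.7 and 22.8 CPM in WDR6-WKO. The ranges overlapped, and the log2 fold change was -0.14 ± 0.09 (SE, edgeR adjusted p = 0.327, 95% interval -0.32 to 0.05). *Gnmt* on chromosome 17 (46725664 to 46729168, minus strand) encodes glycine N-methyltransferase, which uses up S-adenosylmethionine by methylating glycine. It was measured at 2.17, 3.46, 2.23 and 2.26 CPM in WT and at 3.28, 2.79 and 2.90 CPM in WDR6-WKO. The WDR6-WKO values lay above 3 of the 4 WT values and below WT replicate 2, and the log2 fold change was 0.25 ± 0.20 (SE, edgeR adjusted p = 0.457).

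*Ahcy* on chromosome 2 (155059310 to 155074497, minus strand), whose enzyme splits S-adenosylhomocysteine into homocysteine and adenosine, stood at 272, 275, 275 and 259 CPM in WT and at 275, 314 and 268 CPM in WDR6-WKO. WDR6-WKO replicate 2 lay well above the WT range, replicate 1 just above it and replicate 3 inside it. The log2 fold change was 0.08 ± 0.06 (SE, edgeR adjusted p = 0.372) with all libraries and 0.12 without WDR6-WKO replicate 3 (adjusted p = 0.0423). Of the 50-base sequences in its exons, 77.0% also occur in other annotated genes such as *Gm4737*, so reads could be split between them. *Bhmt* on chromosome 13 (93616675 to 93637961, minus strand) encodes betaine-homocysteine methyltransferase, which rebuilds methionine with a methyl group from betaine. Its levels were 3.58, 2.30, 4.89 and 3.82 CPM in WT and 4.20, 4.63 and 3.52 CPM in WDR6-WKO. All 3 WDR6-WKO values lay inside the WT range, and the log2 fold change was 0.18 ± 0.21 (SE, edgeR adjusted p = 0.623). It shares 61.5% of its 50-base sequences with other genes, among them *Gm5096* and the pseudogene *Bhmt-ps1*.

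Of the 2 enzyme genes of transsulfuration, *Cth* was higher and *Cbs* did not pass. *Cbs* on chromosome 17 (31608894 to 31637238, minus strand) encodes cystathionine beta-synthase, which joins homocysteine to serine. It stood at 45.7, 44.8, 44.4 and 46.4 CPM in WT and at 44.9, 42.1 and 39.2 CPM in WDR6-WKO. WDR6-WKO replicate 1 lay inside the WT range and the other 2 below it, and the log2 fold change of -0.11 ± 0.06 did not pass (SE, edgeR adjusted p = 0.296, 95% interval -0.24 to 0.03). *Cth* on chromosome 3 (157894248 to 157925077, minus strand) stood at 35.4, 37.8, 34.6 and 36.1 CPM in WT and at 61.5, 84.6 and 80.4 CPM in WDR6-WKO. Every WDR6-WKO library lay well above every WT library, and the lowest of them was replicate 1, not replicate 3. The log2 fold change was 1.07 ± 0.09 (SE, edgeR adjusted p = 3.43e-06), a fold of 2.09 with a 95% interval of 1.83 to 2.40, and 1.02 without WDR6-WKO replicate 3 (adjusted p = 0.000441). No 50-base sequence of *Cth* occurred in another gene and no other exon overlapped it. Within each library the ratio of *Cth* to *Cbs* per kilobase was 2.67 to 2.91 in WT and 4.72 to 7.09 in WDR6-WKO, a description chosen after the values were seen.

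**Figure D2:**
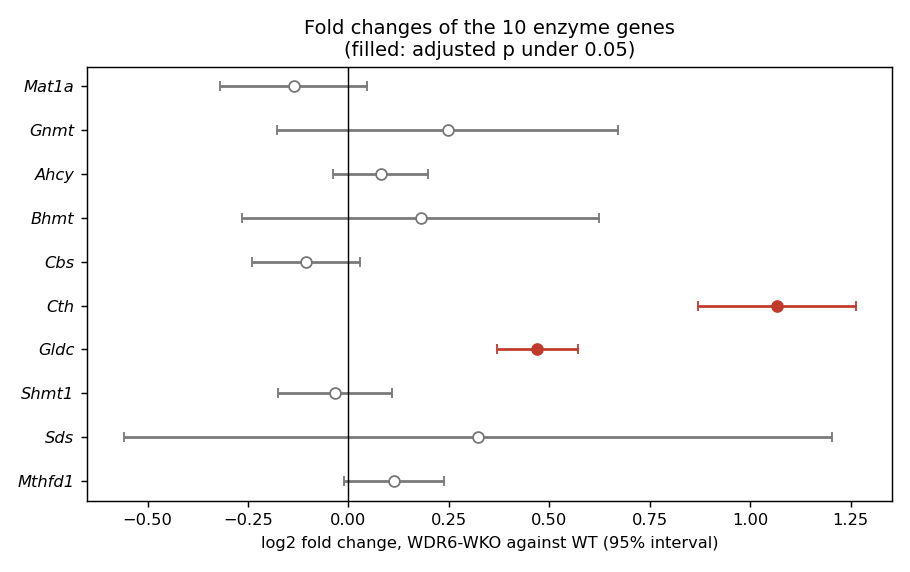
Log2 fold changes of the 10 enzyme genes in WDR6-WKO against WT hepatocytes from edgeR, with bars for the 95% interval and filled points for an adjusted p under 0.05. *Cth* (1.07) and *Gldc* (0.47) lie clear of 0, and the intervals of the other 8 genes include 0.

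*Gldc* on chromosome 19 (30098447 to 30175429, minus strand) stood at 222, 222, 215 and 216 CPM in WT and at 319, 304 and 286 CPM in WDR6-WKO. The ranges did not overlap. The log2 fold change was 0.47 ± 0.05 (SE, edgeR adjusted p = 9e-06), a fold of 1.39 with a 95% interval of 1.29 to 1.49, and 0.51 without WDR6-WKO replicate 3 (adjusted p = 3.17e-11). The decarboxylase made from *Gldc* works in a complex with the aminomethyltransferase AMT, the carrier protein GCSH and the dehydrogenase DLD, which together break glycine down in mitochondria. *Amt*, the partner gene that passes the carbon of glycine to folate, stood at 12.5, 8.33, 10.4 and 12.0 CPM in WT and at 6.11, 6.66 and 5.08 CPM in WDR6-WKO. Here every WDR6-WKO library lay below every WT library, the opposite of *Gldc*, with a log2 fold change of -0.85 ± 0.15 (SE, edgeR adjusted p = 0.00132). *Gcsh* with a log2 fold change of 0.05 and *Dld* with 0.11 did not pass (adjusted p = 0.608 and 0.243). Per kilobase, *Gldc* exceeded *Amt* 11.5 ± 2.29-fold in WT (s.d., n = 4) and 28.4 ± 2.98-fold in WDR6-WKO (s.d., n = 3), a ratio chosen after its values were seen and not tested.

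The sequences before the starts of *Gldc* and *Amt* are shown because these subunits of 1 complex moved in opposite directions. They come from the RefSeq promoter table for GRCm38.p6, *Gldc* at chr19:30175442-30175691 on the minus strand (250 bases up to the start) and *Amt* at chr9:108296655-108296852 on the plus strand (198 bases, from 250 to 53 bases before the start). Both are written 5′ to 3′ on the strand of the gene, and capitals mark the letters of a CCAAT box (CCAAT) or a GC box (GGGCGG) on either strand.
Gldc: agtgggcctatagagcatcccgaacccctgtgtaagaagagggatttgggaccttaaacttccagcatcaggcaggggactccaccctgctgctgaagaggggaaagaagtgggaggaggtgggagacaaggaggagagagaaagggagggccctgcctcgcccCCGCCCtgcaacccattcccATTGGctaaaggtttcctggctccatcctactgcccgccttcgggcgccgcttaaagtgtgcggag
Amt: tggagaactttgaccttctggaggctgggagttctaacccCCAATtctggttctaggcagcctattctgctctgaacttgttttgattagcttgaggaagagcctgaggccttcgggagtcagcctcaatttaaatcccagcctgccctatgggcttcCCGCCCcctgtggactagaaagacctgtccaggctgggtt
In *Gldc* a CCAAT box on the opposite strand (ATTGG) lay 66 bases and a GC box (CCGCCC) 86 bases before the start. In *Amt* a CCAAT box lay 210 bases and a GC box 92 bases before the start. CCAAT occurred in 33.8% and GGGCGG in 32.7% of the 32851 promoters in the table within 250 bases before the start, counting both strands. Of the 10 enzyme genes, 7 had an entry (*Cth*, *Mat1a* and *Sds* had none). All 7 held CCAAT and 5 held GGGCGG. None of the 7 held TGATGNAA, the letters of a C/EBP-ATF composite element, found in 3.45% of all promoters. *Cbs* held CACGTG, an E-box that reads the same on both strands, 229 bases before its start, as did 6.02% of all promoters. These matches describe letters and not bound sites.

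*Shmt1* on chromosome 11 (60788104 to 60811718, minus strand) encodes the cytosolic serine hydroxymethyltransferase, which moves a carbon between serine and glycine. It stood at 49.4, 45.6, 44.2 and 41.8 CPM in WT and at 45.2, 44.9 and 42.6 CPM in WDR6-WKO. All 3 WDR6-WKO values lay inside the WT range, and the log2 fold change was -0.03 ± 0.07 (SE, edgeR adjusted p = 0.803, 95% interval -0.17 to 0.11). *Mthfd1* on chromosome 12 (76255298 to 76319803, plus strand) encodes the cytosolic enzyme with 3 activities that interconverts the forms of folate carrying 1 carbon. It was measured at 99.9, 91.4, 93.6 and 92.3 CPM in WT and at 106, 106 and 93.9 CPM in WDR6-WKO. Replicates 1 and 2 lay above the WT range and replicate 3 inside it. The log2 fold change was 0.11 ± 0.06 (SE, edgeR adjusted p = 0.218), and 0.17 without WDR6-WKO replicate 3 (adjusted p = 0.0119).

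*Sds* on chromosome 5 (120476526 to 120483932, plus strand) encodes serine dehydratase, a periportal enzyme that turns serine into pyruvate. It was near the limit of these libraries, with 3, 16, 12 and 15 counts in WT and 19, 15 and 13 counts in WDR6-WKO. Scaled to CPM, these were 0.151, 0.838, 0.638 and 0.753 in WT and 0.790, 0.709 and 0.726 in WDR6-WKO. On the CPM scale the WDR6-WKO libraries lay inside the WT range, and WT replicate 1 was the lowest. The log2 fold change was 0.32 ± 0.41 (SE, edgeR adjusted p = 0.663), with a 95% interval from -0.56 to 1.20, so a change by a factor of 1.25 was not detectable at this depth. Of its 1288 exon bases, 501 overlap exons of *Plbd2* and *Gm15690* on the opposite strand, and whether the counting used strand was not given in the sources used here. *Plbd2* stood at 105 ± 3.50 CPM in WT (s.d., n = 4) and at 110 ± 11.6 CPM in WDR6-WKO (s.d., n = 3).

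Several of these enzymes have a second form in the liver or in other tissues. *Mat2a*, the form of methionine adenosyltransferase typical of tissues other than adult liver, stood at 322, 344, 333 and 337 CPM in WT and at 339, 345 and 364 CPM in WDR6-WKO, with a log2 fold change of 0.07 ± 0.05 (SE, edgeR adjusted p = 0.379). It was far above *Mat1a* in every library of both genotypes. The ratio of *Mat2a* to *Mat1a* per kilobase was 14.9 ± 1.46 in WT (s.d., n = 4) and 17.1 ± 0.803 in WDR6-WKO (s.d., n = 3). The ranges of 13.3 to 16.5 and 16.3 to 17.9 overlapped, and the log2 ratios differed by 0.20 (exact two-sided permutation test over 35 arrangements, p = 0.114, adjusted over the 2 ratios 0.114). *Shmt2*, the mitochondrial counterpart of *Shmt1*, stood at 129, 122, 111 and 110 CPM in WT and at 148, 201 and 157 CPM in WDR6-WKO. Every WDR6-WKO library lay above every WT library, and the log2 fold change was 0.51 ± 0.10 (SE, edgeR adjusted p = 0.00813), or 0.56 without WDR6-WKO replicate 3, where it did not pass (adjusted p = 0.0615). The ratio of *Shmt2* to *Shmt1* was 3.24 ± 0.0849 in WT and 4.72 ± 0.764 in WDR6-WKO, with a difference of 0.53 in the log2 ratio. The ranges did not overlap, the exact permutation p of 0.0286 was the smallest that 4 against 3 libraries can give, and adjusted over the 2 ratios it was 0.0571. *Sdsl*, a serine dehydratase-like enzyme, showed a log2 fold change of 0.42 ± 0.15 (SE, edgeR adjusted p = 0.0759) and passed without WDR6-WKO replicate 3 (0.61, adjusted p = 1.0e-04). *Bhmt2*, which methylates homocysteine with S-methylmethionine, showed 0.31 ± 0.18 (SE, adjusted p = 0.272).

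**Figure D3:**
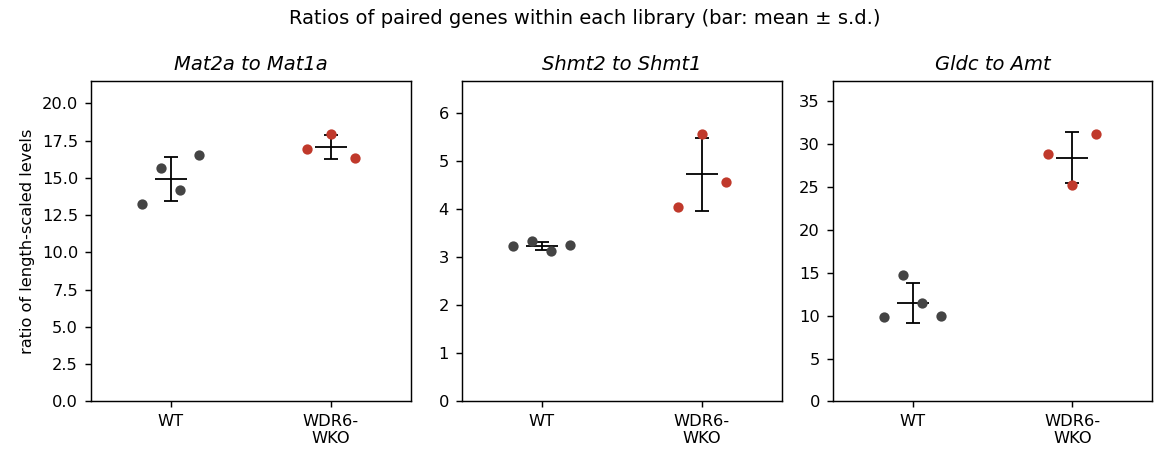
Ratios of length-scaled levels of 3 gene pairs within each library, on linear axes that start at 0, with 1 point per library and a bar for the mean ± s.d. (WT, n = 4, and WDR6-WKO, n = 3). The ratios of *Mat2a* to *Mat1a* overlap, those of *Shmt2* to *Shmt1* (3.12 to 3.33 against 4.05 to 5.55) and of *Gldc* to *Amt* (9.79 to 14.7 against 25.2 to 31.1) do not.

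Around the 10 enzyme genes, 10 lists of the surrounding pathways held 89 other genes, of which 87 were tested. Of these, 11 were higher, 12 were lower and 64 did not pass, and the median of their log2 fold changes was 0.02. Over all genes tested, 6.65% passed as higher and 6.18% as lower, shares that also stand beside the counts of each list below. Of the 11 higher genes, 3 belong to serine synthesis, 4 to mitochondrial and 2 to cytosolic folate metabolism. Of the 12 lower genes, 4 are on the list for cysteine use, *Fmo5* among them, and 3 on that for choline and betaine oxidation. Without WDR6-WKO replicate 3, 14 were higher and 12 lower, while 14.5% of all genes tested passed as higher and 14.1% as lower.

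All 3 genes of serine synthesis from glycolytic intermediates were higher. *Phgdh*, the entry enzyme, stood at 273, 255, 250 and 262 CPM in WT and at 359, 435 and 364 CPM in WDR6-WKO (log2 fold change 0.57 ± 0.06, SE, edgeR adjusted p = 2.15e-05). *Psat1*, the aminotransferase of the second step, stood at 127, 128, 123 and 124 CPM in WT and at 206, 264 and 261 CPM in WDR6-WKO (0.96 ± 0.07, adjusted p = 7.81e-07). *Psph*, the phosphatase that releases serine, stood at 25.7, 27.5, 26.2 and 26.2 CPM in WT and at 46.5, 59.0 and 51.9 CPM in WDR6-WKO (0.99 ± 0.08, adjusted p = 7.6e-07). In each of the 3 genes the genotypes were separate, and WDR6-WKO replicate 3 did not lie below replicate 1. *Phgdh* shares 63.1% and *Psph* 23.9% of its 50-base sequences with other genes, *Psph* with *Cct6a*.

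Of the 6 genes of mitochondrial folate metabolism, 4 were higher, 0 were lower and 2 did not pass in edgeR (0 lower also at an unadjusted p under 0.05, with DESeq2 and with limma-voom). Without WDR6-WKO replicate 3, 3 of the 6 were higher and 0 lower, while 14.5% of all genes tested passed as higher. *Aldh1l2*, which oxidizes formyl-folate in mitochondria, stood at 2.77, 3.82, 2.98 and 3.06 CPM in WT and at 8.19, 12.7 and 10.9 CPM in WDR6-WKO (log2 fold change 1.74 ± 0.16, SE, edgeR adjusted p = 4.32e-06). *Mthfd2*, the mitochondrial methylene-folate dehydrogenase, stood at 30.5, 33.0, 31.4 and 30.3 CPM in WT and at 65.2, 93.1 and 82.0 CPM in WDR6-WKO (1.35 ± 0.10, adjusted p = 1.04e-06). The genotypes were separate in both genes. Of the 6091 exon bases of *Aldh1l2*, 1056 overlap exons of *D10Wsu102e* on the opposite strand. Whether the counting used strand was not given in the sources used here. *Mthfd1l*, the mitochondrial relative of *Mthfd1* that releases formate, was higher by 0.36 ± 0.06 (SE, adjusted p = 0.000907), and *Shmt2* is given above.

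Among 10 genes of cytosolic folate metabolism 2 were higher, 1 was lower and 7 did not pass. *Slc19a1*, a carrier of folate into cells, was higher by 0.40 ± 0.07 on the log2 scale (SE, edgeR adjusted p = 0.00145), and *Atic*, an enzyme of purine synthesis that uses formyl-folate, by 0.16 ± 0.05 (adjusted p = 0.0474). *Ftcd*, which feeds carbon from histidine breakdown into folate, moved the other way, from 16.8, 17.3, 22.1 and 20.5 CPM in WT to 12.2, 11.2 and 7.76 CPM in WDR6-WKO (-0.87 ± 0.14, adjusted p = 0.0011).

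**Figure D4:**
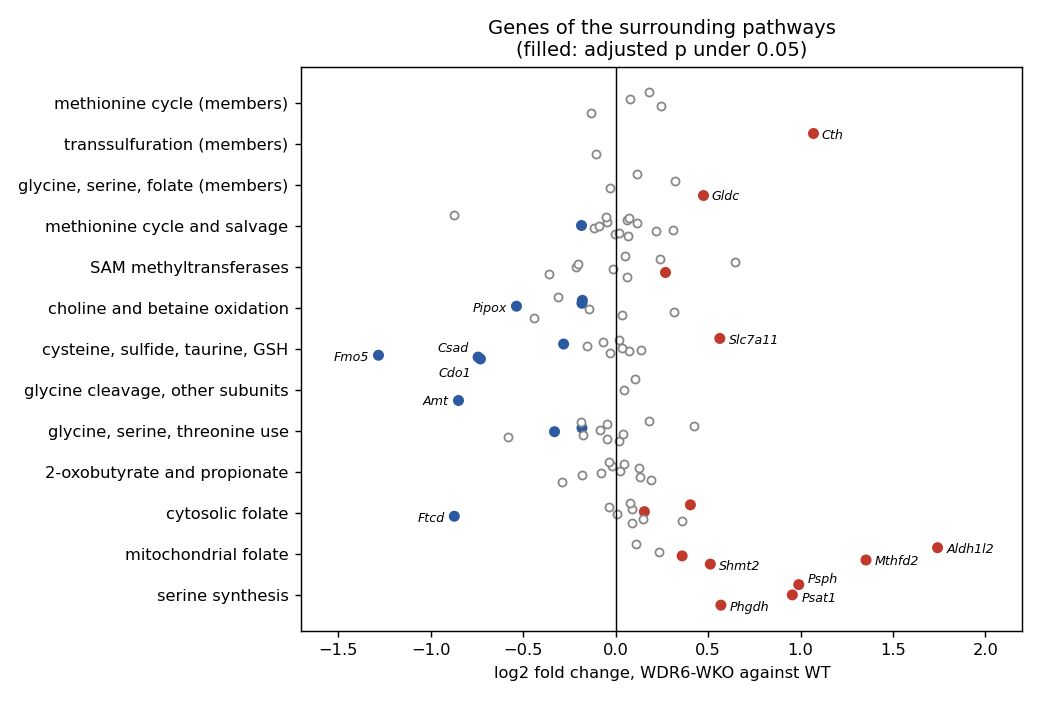
Log2 fold changes in WDR6-WKO against WT hepatocytes for the 10 enzyme genes (the 3 upper rows, marked as members) and the tested genes of 10 lists of surrounding pathways, 1 point per gene, with the vertical offset within a row carrying no value. Filled points have an adjusted p under 0.05 (red, higher, and blue, lower), and names are given for the 2 enzyme genes that passed and for other genes past 0.5 in either direction. The 3 genes of serine synthesis and 4 of 6 genes of mitochondrial folate metabolism are filled on the right.

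Another list was made for the use of cysteine, the product of CTH, in sulfide, taurine and glutathione metabolism. Of its 12 tested genes 1 was higher, 4 were lower and 7 did not pass. *Cdo1*, cysteine dioxygenase, which commits cysteine to taurine and sulfate, stood at 124, 129, 111 and 117 CPM in WT and at 74.8, 72.1 and 70.8 CPM in WDR6-WKO (log2 fold change -0.73 ± 0.06, SE, edgeR adjusted p = 1.05e-06). Its ratio to *Cth* per kilobase was 3.65 to 4.00 in WT and 0.969 to 1.38 in WDR6-WKO, a description chosen after the values were seen. *Csad*, the decarboxylase that follows *Cdo1* on the way to taurine, was lower, at -0.74 ± 0.14 (adjusted p = 0.00259). *Fmo5*, a flavin monooxygenase, stood at 63.9, 66.9, 75.7 and 84.6 CPM in WT and at 32.7, 26.9 and 30.0 CPM in WDR6-WKO (-1.28 ± 0.10, adjusted p = 1.5e-06). *Fmo5* is counted here by its place on the list, and a role in cysteine use was not tested. *Gclc*, the catalytic subunit of the enzyme that starts glutathione synthesis from cysteine, was lower, at -0.28 ± 0.05 (adjusted p = 0.00147). The higher gene was *Slc7a11*, the cystine importer, at 157, 162, 145 and 154 CPM in WT and at 210, 226 and 250 CPM in WDR6-WKO (0.56 ± 0.06, adjusted p = 1.47e-05). For each of these 5 genes the ranges of the genotypes did not overlap.

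In the rest of the methionine cycle and methionine salvage, 0 of 14 genes were higher, 1 was lower and 13 did not pass in edgeR. At an unadjusted p under 0.05, 2 were higher, and DESeq2 and limma-voom called 0 higher. The lower gene was *Adk*, adenosine kinase, which removes the adenosine released with homocysteine, at a log2 fold change of -0.19 ± 0.05 (SE, edgeR adjusted p = 0.0329). Of 9 other methyltransferases that use S-adenosylmethionine, 1 was higher and 8 did not pass. It was *Nnmt*, which methylates nicotinamide, at 65.3, 66.3, 63.8 and 62.3 CPM in WT and at 74.5, 81.4 and 76.3 CPM in WDR6-WKO (0.27 ± 0.06, adjusted p = 0.00498).

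Of 8 genes of choline uptake and betaine oxidation 0 were higher, 3 were lower and 5 did not pass in edgeR (1 higher at an unadjusted p under 0.05, 0 with DESeq2 and limma-voom). Without WDR6-WKO replicate 3, 1 of the 8 was higher and 2 lower, beside 14.5% higher and 14.1% lower of all genes tested. *Pipox*, which oxidizes sarcosine, a product of GNMT, had a log2 fold change of -0.54 ± 0.17 (SE, edgeR adjusted p = 0.0499), with overlapping ranges. *Slc44a1*, a choline transporter, and *Etfdh*, which receives electrons from dimethylglycine and sarcosine oxidation, were both at -0.18 (adjusted p = 0.0418 and 0.0446). Of 12 tested genes for other uses of glycine, serine and threonine 0 were higher and 2 were lower in edgeR (1 higher at an unadjusted p under 0.05, 0 with DESeq2 and limma-voom). They were *Alas1*, which starts haem synthesis from glycine, at -0.18 ± 0.05 (adjusted p = 0.0291), and *Grhpr*, glyoxylate reductase, at -0.33 ± 0.09 (adjusted p = 0.0329). Without WDR6-WKO replicate 3, 1 of these 12 genes was higher and 2 were lower. Of 10 tested genes that process oxobutyrate and propionate, among them those for the product CTH releases with cysteine, 0 passed in either direction in edgeR, DESeq2 and limma-voom, and 1 was lower at an unadjusted p under 0.05. The calls of *Adk*, *Slc44a1*, *Etfdh*, *Pipox*, *Alas1*, *Grhpr* and the folate gene *Atic* were lost under several alternative settings.

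Markers of cell types and of zones in the liver lobule moved beside these genes. The counts here and in the next paragraph stand beside 6.65% higher and 6.18% lower of all genes tested. Of 11 tested hepatocyte markers 1 was higher and 6 were lower. The summed level of the 11 was 16326 to 19293 CPM in WT and 14717 to 16679 CPM in WDR6-WKO. The largest parts of this sum in WT were *Alb* and *Apob*, with means of 7366 and 5845 CPM, and neither passed (edgeR adjusted p = 0.101 and 0.489). *Cps1*, a urea cycle enzyme, had a log2 fold change of -0.69, *Fgb*, a fibrinogen chain, of -0.45 and *F2*, prothrombin, of -0.32 (edgeR adjusted p = 0.000114, 0.000143 and 0.000784). Of 15 Kupffer cell markers 6 were higher and 0 lower in edgeR (1 lower at an unadjusted p under 0.05, 0 with DESeq2 and limma-voom), with a summed level of 914 to 1004 CPM in WT and 1078 to 1279 CPM in WDR6-WKO. *Lyz2* (0.64), *Ctss* (0.47) and *C1qc* (0.48) had the smallest p among them (adjusted p = 2.13e-06, 0.000157 and 0.00203). The gene lower at an unadjusted p was *Timd4* (-0.48, edgeR adjusted p = 0.0880). Among the 9 Kupffer cell markers that did not pass were also *Clec4f* (0.10), *Vsig4* (0.22) and *Cd5l* (0.18), with adjusted p = 0.311, 0.145 and 0.0687. These 4 genes lie outside the rule for named genes and were chosen after their values were seen. For endothelial cells 0 of 10 were higher in edgeR, at an unadjusted p under 0.05, and with DESeq2 and limma-voom, and 1 was lower, with a summed level of 330 to 378 CPM in WT and 311 to 368 CPM in WDR6-WKO. For stellate cells 2 of 10 were higher and 1 was lower (692 to 754 and 739 to 806 CPM), and for cholangiocytes 1 of 5 tested was higher (252 to 277 and 255 to 279 CPM). Of 8 lymphocyte markers 1 was tested and did not pass. No tested marker of these lists was at 0 in any library, and each hepatocyte marker stood at 22.9 CPM or more. Without WDR6-WKO replicate 3, 8 hepatocyte markers were lower and 10 Kupffer cell markers were higher, beside the larger shares of all genes, 14.1% lower and 14.5% higher, that passed in that setting. The part of other cells in the values of the enzyme genes was not tested.

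Of 12 tested genes of the portal zone 5 were higher and 2 were lower, and of 11 tested genes of the central zone 1 was higher and 7 were lower. Of the portal genes, *Arg1*, arginase, rose with a log2 fold change of 0.77 and *Ctsc*, a cathepsin, with 0.36 (edgeR adjusted p = 8.21e-06 and 0.000224). *Cps1*, which is also on the hepatocyte list above, fell. *Glul*, glutamine synthetase of the central zone, was at -0.58 and *Cyp2a5* at -1.19 (adjusted p = 2.37e-06 and 1.12e-06), and the higher gene of the central list was the amino acid transporter *Slc1a4* at 0.80 (adjusted p = 1.14e-05). Of 8 tested genes induced by glucagon or glucocorticoids 1 was higher and 3 were lower, *Igfbp1* at -0.62 and *Tdo2* at -0.69 among the latter (adjusted p = 3.14e-07 and 0.00031). The higher gene was *Tsc22d3*, a target of glucocorticoids, at 0.35 (adjusted p = 0.00741). Of 19 markers of hepatocytes that lose their identity in culture 4 were higher and 2 were lower, and their summed level was 25652 to 26023 CPM in WT and 23812 to 25305 CPM in WDR6-WKO. *Ccnd1* was at 0.54, *Myc* at 0.30 and *Spp1* at 0.31 (adjusted p = 1.79e-05, 0.00156 and 0.00372), and the lower genes were the keratins *Krt8* at -0.28 and *Krt18* at -0.26 (adjusted p = 0.00973 and 0.00408), which lie outside the rule for named genes and were chosen after their values were seen. Without WDR6-WKO replicate 3, 8 of the 19 markers of lost identity were higher and 3 lower. Of the 8 genes induced by hormones, 2 were higher and 3 lower without it. In that setting 14.5% of all genes tested passed as higher and 14.1% as lower. Whether any of these lists bears on *Cth* or *Gldc* was not tested.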

How the data were processed

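RNA of primary hepatocytes from 4 WT and 3 WDR6-WKO samples was sequenced by the authors on an Illumina HiSeq, aligned to GRCm38 (mm10) with Bowtie2 2.2.3 per the submitters' processing notes, and deposited as raw counts per gene. The counting tool, its annotation and its strand setting were not given in the sources used here. The table holds 14819 rows with no total below 50.

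From the deposited counts, edgeR 4.0.16 in R 4.3.3 gave TMM scaling, the expression filter and the robust quasi-likelihood test over 14779 genes. Standard errors came from the fold change and the F statistic. The biological coefficient of variation was 7.4%. Ratios were tested with exact permutation tests. Annotation and exon lengths came from GENCODE for GRCm38. Only the edgeR test was tried on simulated data.

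The enzyme genes and lists were chosen with earlier results of these data known. Named were *Wdr6*, the 10 genes, their isozymes and partner subunits, and the genes of smallest p among those passing in each list, up to 4 per pathway and 3 per marker list. Alternatives were DESeq2 1.42.0, limma-voom (limma 3.58.1), other scalings, filters and thresholds, a replicate block, and leaving out each library. An item of the pathway lists is not reported here.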

Additional observations from a re-analysis of the deposited data

Results flagged for a closer look

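Among 19 values for the enzyme genes and ratios, 1 was far from the others of its group. *Gnmt* in WT replicate 2 stood at 3.456 CPM, while the other 3 WT libraries lay between 2.168 and 2.259 CPM, and the gap was 0.929 of the whole range. The cutoff for calling a value far, set for groups of 4 libraries, is passed by chance in about 1 of 20 groups. How often chance gives a gap as large as that of *Gnmt* was not worked out.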

How the results depend on the processing

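*Cth* and *Gldc* passed as higher, and none of the 10 enzyme genes as lower, under every alternative run. The count of higher enzyme genes was 2 in each of them except without WDR6-WKO replicate 3, where it was 4, with *Ahcy* at 0.12 and *Mthfd1* at 0.17 on the log2 scale. The number of genes that passed among all tested ranged from 1032 without WDR6-WKO replicate 2 to 4233 without replicate 3, around 1897 with all libraries, and the median log2 fold change of the 10 genes from 0.0868 to 0.216 over the same omissions. With 1 library left out, *Ahcy* ranged from 0.0073 to 0.12, *Mthfd1* from 0.081 to 0.17, *Bhmt* from 0.014 to 0.35, *Gnmt* from 0.17 to 0.43 (the latter without WT replicate 2), *Shmt1* from -0.069 to 0.012 and *Sds* from -0.00035 to 0.53, and the signs of *Shmt1* and *Sds* reversed without WT replicate 1. The log2 difference in the *Shmt2* to *Shmt1* ratio was 0.41 to 0.64 with 1 library left out, where no p under 0.05 is possible. Library sizes alone turned the split of higher and lower genes from 983 and 914 to 1212 and 696. The filter on 10 counts in every sample left 9 of the 10 genes, without *Sds*. Among the other named genes, 633 values were on the same side of the threshold, 66 lost and 1 gained significance, the losses falling on *Adk*, *Slc44a1*, *Etfdh*, *Pipox*, *Alas1*, *Grhpr*, *Atic*, *Tek*, *Dcn*, *Sox9* and *Shmt2*. The study's thresholds, a log2 fold change of 0.35 and an unadjusted p of 0.05, were applied to the edgeR fit. They called 1532 genes and 2 of the 10, and 3 of the 10, with *Gnmt*, without WT replicate 2. With DESeq2, the program the study used, they called 1373 genes and 2 of the 10. Same-numbered samples share a number in their labels, and whether they share anything else was not given. The correlations of their deviations were 0.04, 0.02 and 0.04, which cannot decide this. With the replicate number as a block 1749 genes passed and *Cth* (1.06) and *Gldc* (0.46) stayed higher. With counts as low as those of *Sds*, only large changes could be seen.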

Other observations

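*Amt* lies 270 kb from *Wdr6* on chromosome 9. Of 33 tested genes within 500 kb on either side of *Wdr6*, 4 passed the test, *Shisa5* (0.31) and *Tma7* (0.31) as higher and *Amt* (-0.85) and *Dag1* (-0.23) as lower on the log2 scale, a share of 12.1% beside 12.8% of all genes tested. These neighbours were looked at after the value of *Amt* had been seen.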
